A study of Mus musculus with 2 samples.

Results

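The 9 genes described here encode the T-cell coreceptors (Cd4, Cd8a and Cd8b1), surface markers whose levels shift as thymocytes mature (Cd24a, Cd69 and Cd44), and 3 genes used as markers of thymocytes that carry both coreceptors (Arpp21, Trat1 and Rmnd5a). They were chosen by name: every non-control probe whose gene name in the scanner files was one of these 9 was taken, which gave 17 of the 55681 probes and 9 of the 34844 gene names on the array. The probes are printed on 35 spots. The RNA came from P5424, a mouse T-cell line that the labels give as untreated and as a knockout for Rag2 and P53, grown in RPMI1640 medium that held 2-mercaptoethanol (0.1 mM) and serum (10%). The 1 group holds 2 samples, each hybridised to its own one-colour array and called replicate 1 and replicate 2. Both replicates carry the same genotype and no other condition was compared, so every difference below is between replicates and not an effect of the knockouts. No label says that the replicates were grown separately, and the spread between them may be technical. The genes that the genotype label names gave signal on both arrays. The Rag2 probes gave 2132 and 2086 units and 89.2 and 88.3 units on replicates 1 and 2. The probe of Trp53, which encodes P53, gave 746 and 996 units. All were well above background, although the 88.3 units lay under the highest negative control spot of replicate 2 (101 units). Which stretch of each gene is missing is not stated, and whether these probes lie in it was not tested, so the signals do not check the genotype. A cell line also differs from a thymus in that it holds no stroma and no sequence of stages.

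Thymocytes first lack both coreceptors, then express CD4 and CD8 together in the double-positive stage, and keep 1 of them once their T-cell receptor has been tested on a major histocompatibility molecule. CD4 binds class II molecules and CD8, a pair of chains encoded by Cd8a and Cd8b1, binds class I molecules, and both bring the kinase Lck to the receptor. CD24 (heat-stable antigen) is high on immature thymocytes, CD69 appears after receptor stimulation, and CD44, a receptor for hyaluronan, is high on early progenitors and on memory T cells. Arpp21 encodes an RNA-binding phosphoprotein, Trat1 an adaptor of the T-cell receptor complex, and Rmnd5a a RING subunit of the CTLH ubiquitin ligase.

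The following 4 of the 60-base probes are shown because results turn on them. The first pair lie upstream of another probe of the same gene and were higher on replicate 2 where that other probe was not. The second pair belong to Cd44 and gave opposite detection calls. Capitals mark the stop triplets TAA, TAG and TGA on the printed strand.
Cd4, base 1242 of NM_013488: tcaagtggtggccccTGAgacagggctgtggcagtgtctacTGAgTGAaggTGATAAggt
Cd8a, base 464 of NM_009857: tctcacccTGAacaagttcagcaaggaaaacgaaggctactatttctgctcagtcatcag
Cd44, base 1777 of NM_009851: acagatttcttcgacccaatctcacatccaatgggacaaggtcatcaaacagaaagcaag
Cd44, base 1965 of NM_009851: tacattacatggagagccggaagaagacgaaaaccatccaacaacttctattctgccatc
On the mouse build mm9 the Cd4 probe lies at chr6:124817706-124817765 on the minus strand and the Cd8a probe at chr6:71323885-71323944 on the plus strand. The Cd44 probes lie at chr2:102677971-102678030 and chr2:102672645-102672704 on the minus strand. The Cd4 probe holds 5 stop triplets that leave 1 of the 3 sense frames open, the Cd8a probe holds 1 and leaves 2 frames open, and both Cd44 probes hold 0. An open sense frame is common, since 79.3% of all probes on the array have one. The polyadenylation hexamer AATAAA, searched on the sense strand, occurs 2 times in the other Cd4 probe, at base 3035, and in 0 of the other 16 probes. It occurs in 10.1% of all probes on that strand and in 13.5% on either strand.

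Of the 9 genes, 8 were detected and Cd69 was not. A probe was called detected when its signal on each array was well above background by the scanner software's call, and a gene when any of its probes was. Across the array, 51.7% of 22221 genes named through RefSeq met this rule. Of the 17 probes, 13 were detected, 2 were well above background on 1 array and 2 on neither, and 40.1% of all probes were detected. Cd4, Cd8a, Cd8b1, Cd24a, Arpp21, Trat1 and Rmnd5a were detected with all of their probes, and Cd44 with 1 of 4. No member probe was saturated. Replicate 1 had 42.5% and replicate 2 had 41.2% of all probes well above background, and their 308 negative control spots had medians of 6.55 and 7.50 intensity units. The highest of these spots reached 15.1 units on replicate 1 and 101 units on replicate 2, where the next reached 17.6.

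**Figure D1:**
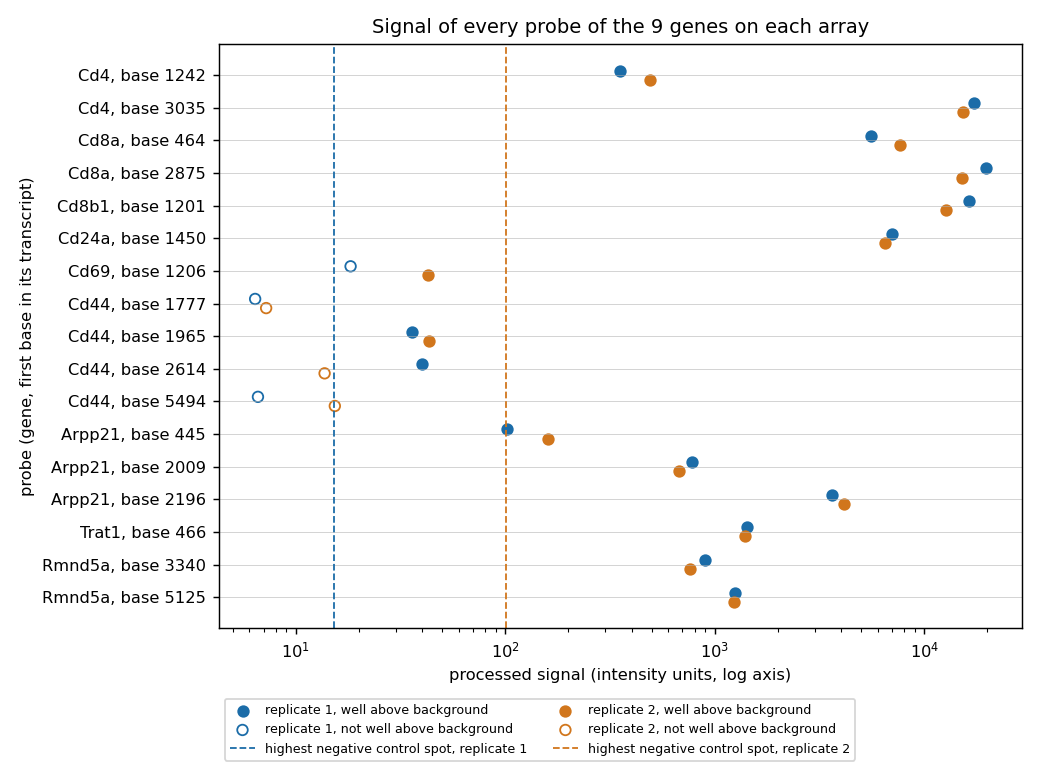
Processed signal in intensity units (log axis) of each of the 17 probes, labelled by gene and by first base in its transcript, on replicate 1 (blue) and replicate 2 (orange). Filled points are well above background, open points are not, and dashed lines mark the highest negative control spot of each array. The coreceptor, Cd24a, Trat1 and Rmnd5a probes lie to the right with the Arpp21 probes at bases 2009 and 2196, all at 352 units or more. The Arpp21 probe at base 445 lies at 102 and 159 units, and the Cd69 and Cd44 probes lie between 6 and 43 units.

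The coreceptor genes were detected with every probe. Signals below are in intensity units before scaling. A level is a log2 signal minus that of its array's 75th percentile, with the mean and SD over both arrays (n = 2). The Cd4 probe at base 3035 gave 17227 units on replicate 1 and 15353 on replicate 2, a level of 5.71 ± 0.03. The Cd4 probe at base 1242 gave 352 and 488 units, a level of 0.41 ± 0.42. The first was nearly equal on the 2 arrays, and the second was higher on replicate 2. The Cd8a probe at base 464 gave 5579 and 7630 units, a level of 4.39 ± 0.40. The Cd8a probe at base 2875 of NM_001081110 gave 19685 and 15151 units, a level of 5.79 ± 0.18. Again the probe nearer the start of the gene was higher on replicate 2 and the other was lower there. The single Cd8b1 probe gave 16418 and 12648 units, a level of 5.53 ± 0.18, and was also lower on replicate 2. Levels of different probes are not compared, because probes differ in how well they bind.

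For 1 probe of Cd4 and 1 of Cd8a the array carries 10 spots, so the error within an array is measured. The 10 Cd4 spots of replicate 1 ran from 331 to 383 units with a median of 354, and the 9 usable spots of replicate 2 ran from 439 to 533 with a median of 486. The spots of the arrays did not overlap. The 9 usable Cd8a spots of replicate 1 ran from 18473 to 20419 units with a median of 19844, and the 10 spots of replicate 2 ran from 14410 to 16044 with a median of 15189. These did not overlap either, and replicate 1 was the higher array. The coefficient of variation among spots was 4.16% and 6.32% for Cd4 and 3.07% and 3.23% for Cd8a. After scaling, the Cd4 probe was higher on replicate 2 by 0.59 (standard error over spots 0.04) and the Cd8a probe was at -0.26 (standard error 0.02). Spots of 1 array share its RNA, so these errors cover the printing and reading of spots and not the samples. Of the 207 detected probes with 10 spots, 26.6% did not overlap between the arrays after scaling, as these 2 did not.

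**Figure D2:**
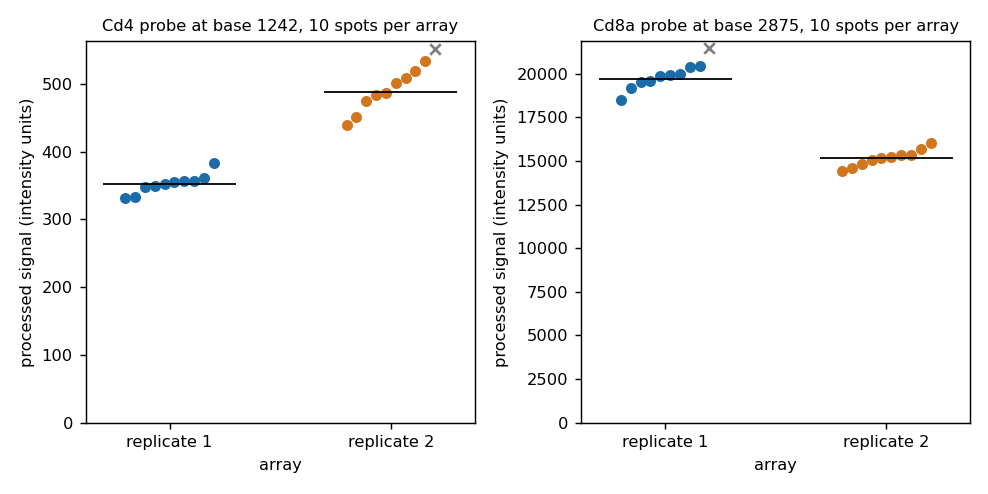
Processed signal in intensity units of each of the 10 spots of the Cd4 probe at base 1242 (left) and of the Cd8a probe at base 2875 (right) on both arrays. Black lines are geometric means of the usable spots and grey crosses are spots the software marked as outliers, 1 on each array. The Cd4 spots lie higher on replicate 2 and the Cd8a spots higher on replicate 1, without overlap.

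Of the surface markers, Cd24a was detected, and Cd69 and Cd44 stayed close to background. The Cd24a probe, at base 1450 of NM_009846 and chr10:43303706-43303765, gave 7019 and 6466 units, a level of 4.44 ± 0.00. After scaling, the arrays gave the same value to 2 decimals. The Cd69 probe, at chr6:129217697-129217756, gave 18.2 units on replicate 1, not well above background, and 42.5 on replicate 2, where it was. Of all probes, 1.08% were well above background on replicate 2 alone, and 2.57% of genes had that call on 1 array only. Its signal was positive and significant by the software's own test on both arrays, and the value of replicate 2 lay below the highest negative control spot there.

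Cd44 was detected through 1 of its 4 probes. The probe at base 1965 gave 35.8 and 43.0 units, a level of -2.99 ± 0.27, and on replicate 2 a negative control spot gave a higher signal. The probe at base 2614 gave 40.0 units on replicate 1 and 13.7 on replicate 2, and was well above background on replicate 1 alone, as 2.39% of all probes were. The probe at base 1777 gave 6.38 and 7.20 units and that at base 5494 gave 6.58 and 15.3 units, and neither was well above background on an array. The 2 probes printed above are therefore 1 detected and 1 not, although both match the same Cd44 transcript record. Transcripts of Cd44 are known to differ by variable exons, and which of them a probe can bind was not analysed here. When a signal above the highest negative control on both arrays was required, 7 of the 9 genes and 12 of the 17 probes were detected, against 32.4% of all probes, and Cd44 was not among them.

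The remaining 3 markers were detected with all of their 6 probes. The Arpp21 probe at base 2196 of NM_001177617 gave 3625 and 4144 units, a level of 3.64 ± 0.22. The probe at base 2009 of NM_028755 gave 777 and 676 units (1.22 ± 0.06), and the probe at base 445 of NM_001177619 gave 102 and 159 units (-1.29 ± 0.54). These 3 probes were designed on different transcript variants of the gene and lie over 115 kb of chromosome 9. The last was the detected member probe with the widest gap between the arrays. The Trat1 probe, at chr16:48734961-48735020, gave 1428 and 1392 units, a level of 2.18 ± 0.06. The Rmnd5a probe at base 5125 gave 1247 and 1232 units (1.99 ± 0.07) and that at base 3340 gave 896 and 759 units (1.41 ± 0.08). Trat1 and Rmnd5a were thus nearly equal on the arrays with each of their probes.

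None of the 13 detected probes was over 2-fold apart between the arrays (0 of 13), where 1.15% of all 22321 detected probes were (0.766% higher on replicate 2 and 0.385% higher on replicate 1). Of the 13, 7 were higher on replicate 2, as 49.3% of all detected probes were. Their median absolute difference was 0.26 on the log2 scale and that of all detected probes 0.18. Arpp21 at base 445 was higher on replicate 2 by 0.76 (1.70-fold), Cd4 at base 1242 by 0.59 (1.50-fold) and Cd8a at base 464 by 0.57 (1.48-fold). Of all detected probes, 3.48%, 7.80% and 8.50% lay at least that far apart in either direction. Among probes within 0.5 log2 of the same level these shares were 7.10%, 8.82% and 3.02%. Cd8a at base 2875 and Cd8b1 were at -0.26 each, and 35.6% and 35.8% of detected probes were at least as far apart. With 1 array per replicate no test per probe was possible. These 5 probes kept their direction under the 7 alternatives of scaling, background, flags and values, although the median difference of all detected probes went to -0.23 when arrays were scaled to their medians and to -0.12 without scaling. Cd24a, Trat1 and Rmnd5a at base 5125, each at 0.10 or less in size, changed sign under at least 1 scaling.

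**Figure D3:**
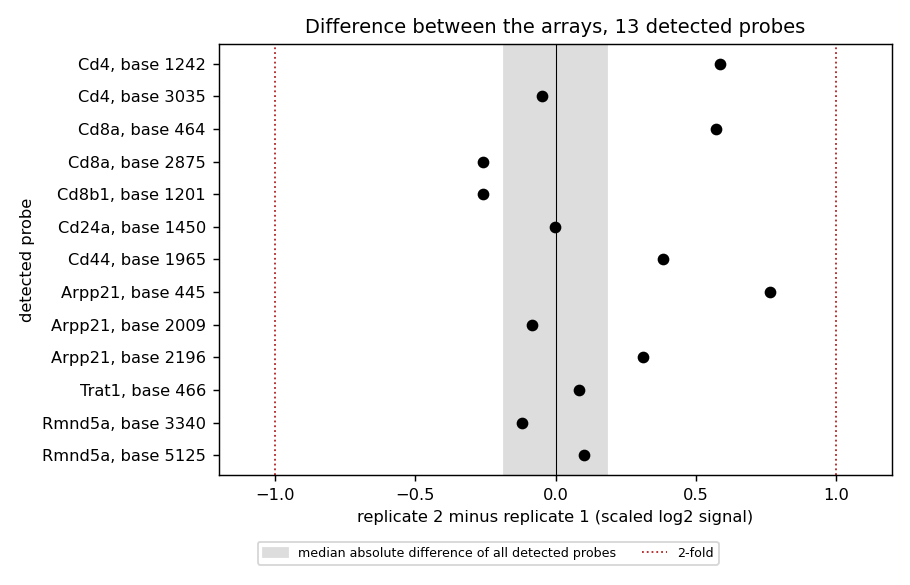
Replicate 2 minus replicate 1 of the scaled log2 signal for the 13 detected probes (points), labelled by gene and first base in the transcript. The grey band is the median absolute difference of all detected probes (0.18) and the dotted lines mark 2-fold. All 13 points lie inside the 2-fold lines, and the upstream probes of Cd4, Cd8a and Arpp21 lie farthest to the right.

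Probes of Cd4, Cd8a and Arpp21 differed between the arrays in opposite directions under all alternatives, and those of Rmnd5a under some. After the main scaling all 4 genes with several detected probes (Cd4, Cd8a, Arpp21 and Rmnd5a) had probes on both sides of 0, as 49.7% of 3380 such genes did. With arrays scaled to their medians both Rmnd5a probes were lower on replicate 2 (-0.13 at base 5125 and -0.35 at base 3340). Without scaling they were at -0.02 and -0.24. The most upstream minus the most downstream probe, which cancels any scaling of whole arrays, was 0.63 for Cd4, 0.83 for Cd8a, 0.45 for Arpp21 and -0.22 for Rmnd5a. Across 2608 genes with 2 detected probes at least 500 bases apart on mm9, this value was positive in 71.4%, with a median of 0.20 and quartiles at -0.04 and 0.45. Relative to downstream probes, upstream probes were therefore higher on replicate 2 over the array as a whole. After the main scaling the median difference was 0.12 for the upstream probes and -0.08 for the downstream probes. Each of these medians moves with the scaling of whole arrays, so neither shows an absolute rise or fall. Of those genes, 12.5% had a value at least as high as Cd4, 5.14% as Cd8a, 24.5% as Arpp21 and 86.3% as Rmnd5a. The part of this array-wide shift in the Cd4, Cd8a and Arpp21 values was not tested.

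The factors and kinases that act with the coreceptors were nearly all detected, against 51.7% of genes on the array. Of 20 regulators of the coreceptor genes, 19 were detected, including Runx1 at 3.82 ± 0.30, Runx3, which silences Cd4 in the CD8 lineage, at -2.56 ± 0.35, and their partner Cbfb at 5.54 ± 0.16. Runx3 was detected with 1 of its 2 probes, at 46.4 and 60.4 units, and the latter lay under the top control spot of its array. Tox, needed for the CD4 lineage, was well above background on 1 array only. All 15 coreceptor signalling genes were detected, among them Lck at 8.73 ± 0.19, its substrate kinase Zap70 at 6.52 ± 0.08 and the receptor chain Cd3e at 8.31 ± 0.17. Of the 9 adaptors and partners related to Trat1, 8 were detected, with Lat at 7.63 ± 0.11, Lax1 at -0.55 ± 0.01 and Sit1 at 4.67 ± 0.01, and Ctla4 was the exception. The lists were drawn up for these pathways with earlier results of the arrays known, so the counts describe them and are no test.

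The ligase partners of Rmnd5a and the relatives of Arpp21 were detected throughout, against 51.7% of genes on the array. All 11 genes of the CTLH ligase list were detected, with the paralogue Rmnd5b at 1.48 ± 0.08, the second RING subunit Maea at 3.38 ± 0.07 and the scaffold Ranbp9 at 3.06 ± 0.12 in 2 of its 3 probes. All 9 genes of the Arpp21 list were detected, including the R3H-domain genes R3hdm1 at 3.82 ± 0.11, R3hdm2 at 2.81 ± 0.09 and R3hdm4 at 1.06 ± 0.23.

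Most listed genes around CD44, CD69 and CD24 were not detected, where 51.7% of genes on the array were detected. Of 13 CD44 ligands and linkers, 5 were detected. These were the cytoskeletal linkers Ezr at 5.32 ± 0.03, Msn at 5.31 ± 0.16 and Rdx at 5.29 ± 0.04, the hyaluronidase Hyal2 at 3.83 ± 0.05, and the proteoglycan Vcan at -2.40 ± 0.04 in 1 of its 3 probes. Vcan gave 62.8 and 55.5 units, the latter under the top control spot of replicate 2. The hyaluronan synthases Has1 and Has2 were among the 8 not well above background. Of 10 genes tied to CD69, CD24 or thymic exit, 3 were detected, namely Myl12b at 5.78 ± 0.02, Hmgb1, a CD24 ligand, at 8.26 ± 0.28 and the kinase Fgr at 0.62 ± 0.28. Hmgb1 has near-identical copies in the genome, so its 8 probes may read more than 1 locus. S1pr1, the exit receptor that CD69 removes from the surface, and its activator Klf2 were not well above background.

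Of 20 markers of the stages around the double-positive stage, 16 were detected, against 51.7% of genes on the array. Rag2 was among the 16 although the genotype label gives it as knocked out. Il2ra, which encodes CD25, had -2.31 ± 0.25 with signals of 57.9 and 68.3 units, the latter under the top control spot of replicate 2. Ptcra, which pairs with the beta chain before the alpha chain is made, had 5.52 ± 0.25, and Kit had 0.97 ± 0.04. Il7r, S1pr1 and Itga4 were not well above background, and Cd53 was well above it on 1 array. In bulk RNA, fewer cells of a kind and less RNA per cell cannot be told apart, and no level here shows that 1 cell carried both coreceptors.

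**Figure D4:**
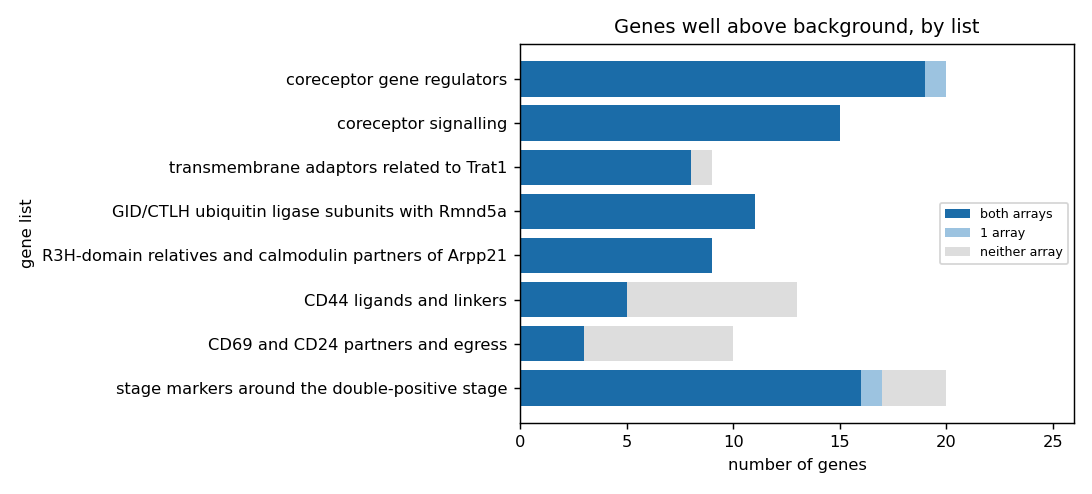
Number of genes in each of the 8 lists that were well above background on both arrays (dark blue), on 1 array (light blue) or on neither (grey). The signalling, CTLH and Arpp21 lists are dark blue throughout, and the CD44 list (5 of 13) and the CD69 and CD24 list (3 of 10) are mostly grey.

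Markers of other cells that can carry these genes were mostly near background. All 9 T-lineage markers were detected, against 51.7% of genes on the array, with levels from 1.39 (Cd2) to 8.91 (Cd3d). Of 6 B-cell markers, Cd79a alone was detected on both arrays, at -2.74 ± 0.11 in 1 of its 2 probes, and Pax5, Ms4a1 and Ebf1 were among those that were not. Of 9 myeloid and dendritic markers, Batf3 at -2.90 ± 0.20 and Csf1r at -1.61 ± 0.63 were detected, and Itgax, Zbtb46, Xcr1, Clec9a, Lyz2 and Cebpa were not. Of 6 erythroid markers measured, Klf1, Epor and Gata1 were detected at -2.19 ± 0.05, 3.98 ± 0.09 and -0.54 ± 0.05, and Hba-a1 and Alas2 were among those that were not. Of 7 mature T-cell markers, 3 were detected, among them Ccr7 at -0.63 ± 0.52 and Ifng at -1.28 ± 1.11. On replicate 2 the signals of Cd79a, Batf3 and Klf1 lay under the top control spot. The part of these markers' sources in the member signals was not tested.

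Cd8a, Cd8b1 and Rmnd5a are neighbours on chromosome 6, and all 5 of their probes were detected. Relative to the first Cd8a probe, the Cd8b1 probe lies at -36.7 kb and the Rmnd5a probes at 15.7 and 17.5 kb, on the opposite strand. Within 250 kb of them, 8 of 14 probes of other genes were detected (57.1%), against 40.2% of all 55116 probes with a position. The detected neighbours were Thnsl2 at 2.62 ± 0.02, Smyd1 at 0.85 ± 0.05 in 1 of its 2 probes, Krcc1 at 4.01 ± 0.12, Rnf103 at 1.27 ± 0.00 in 1 of its 2 probes, and Chmp3 at 2.14 ± 0.00 in the highest of its 3 detected probes, together with Kdm3a, which gave 2744 and 2245 units. Fabp1, a fatty acid carrier of liver and gut, was not well above background.

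**Figure D5:**
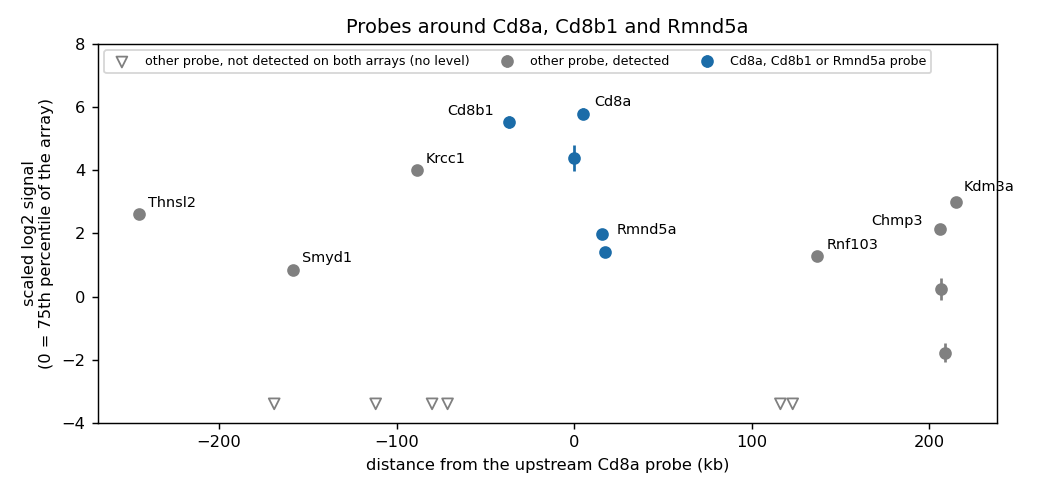
Scaled log2 signal (mean, bars SD of the 2 arrays) of detected probes against distance in kb from the upstream Cd8a probe, for Cd8a, Cd8b1 and Rmnd5a (blue) and other probes within 250 kb (grey). Triangles mark the 6 other probes not detected on both arrays, drawn at a fixed height because they have no level. Detected probes of other genes lie on both sides of the Cd8 genes.

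Around the other members the share of detected probes varied. Near Cd4, 31 of 36 probes were detected (86.1%). Near Cd69, in a region of lectin-like receptor genes used by natural killer and myeloid cells, 4 of 39 were (10.3%). The only named gene among them was Klrb1f at -1.89 ± 0.18, whose signal on replicate 2 lay under the top control spot. Near Cd24a 6 of 11, near Cd44 2 of 7, near Arpp21 2 of 5 and near Trat1 2 of 5 probes were detected. Over the windows of all members together 55 of 117 probes were detected (47.0%), against 40.2% of all probes with a position. Of these 55, 31 lie near Cd4. With windows of 100 and 500 kb the share was 41.1% and 43.1%, nearer to that of all probes.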

How the data were processed

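Total RNA of 2 P5424 samples was labelled with Cy3, 200 ng each per the labels' protocols, and read on 2 arrays of 1 slide. The intensity values that the authors deposited come from Agilent Feature Extraction 10.5.1.1, per the file headers and the submitters' processing notes. It had fitted and subtracted a background, detrended each array and replaced signals near background by surrogates, per the file headers. The authors also deposited a table of log2 values of these spots whose scale and centring are not stated. Both of its columns have a median of 5.18.

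Non-control spots marked as non-uniform or population outliers were dropped, log2 processed signals were averaged per probe, and the 75th percentile of each array (324 and 299 units) was subtracted. A probe with several spots was called well above background when at least 50% of its usable spots were. The detected probe of highest mean gives a gene's level. Of the probes, 31220 matched a RefSeq gene of GRCm38.p6, used for names only, and 24461 kept the name in the files. Probe positions are on mm9. Exons and coding parts were not analysed here.

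The members, lists and tests were chosen with earlier results of these arrays known, and the comparison of upstream with downstream probes was added after seeing the data. Named are all members with every probe, and of each list the first 3 detected and first 2 undetected genes plus any class of 5 or fewer, with detected neighbours of the Cd8 genes. Genes of the marker lists and Klrb1f were named after their values were seen. Alternatives used normexp with an offset of 50 (limma 3.58.1), other scalings, detection rules and the deposited log2 values. The way 2-fold differences are counted was tested on simulated data with known changes well over 2-fold, so changes near 2-fold were not covered. With 1 group there was no test, and precision is limited by the number of arrays. Values of some listed marker genes are not reported here.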

Additional observations from a re-analysis of the deposited data

How the results depend on the processing

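The count of 8 detected genes ranged from 7 to 9 over the alternatives. It was 9 with either array sufficing, with a positive and significant signal, or without replicate 1, and 8 without replicate 2. Letting either array suffice also adds genes across the array, 2.57% of them beside the 51.7% detected on both. Shares of all genes under the other rules are not given here. The count was 7 when every probe had to be detected or the signal had to exceed the highest negative control, where Cd44 was lost and Cd69 was undetected as before. On replicate 2 that control rule hangs on 1 spot at 101 units, and the next reached 17.6. The signals there of Cd44 at base 1965 (43.0 units) and Cd69 (42.5 units) lay between these. By the software's call, Cd69 failed on replicate 1 alone, and by the control rule it failed on replicate 2 alone. The call on Cd44 rests on signals close to background. Taking all probes whether detected or not, 3 member probes (Cd69 and 2 of Cd44) were over 2-fold apart, where detected probes gave 0. These 3 probes were not detected on both arrays, and the part of their low signals in these gaps was not tested. The share of all probes, detected or not, that lay over 2-fold apart is not given here. The differences of Cd24a, Trat1 and Rmnd5a at base 5125 changed sign with the scaling, and those of the other 10 detected probes did not. The 13 detected probes became 14 without either replicate, and the 86 detected list genes 86 to 88. Levels under other scalings move with the reference point, by construction. The median upstream minus downstream difference of 0.20 was 0.25 by transcript base, 0.17 with normexp and 0.20 with the deposited log2 values, alternatives chosen after seeing the data. The share of detected probes near the members was 47.0% with windows of 250 kb, 41.1% with 100 kb and 43.1% with 500 kb. Of all probes with a position, 40.2% were detected. No paired analysis was possible because both samples belong to 1 group and share no replicate number.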
